A study of Mus musculus with 8 samples.

Results

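The hemidesmosome is the junction that fastens the basal keratinocyte of a stratified epithelium to its basement membrane. This account follows 9 of its genes and those of the anchoring structures beneath it, chosen by name from the 49315 gene identifiers of the deposited tables: Itga3, Itga6, Itgb4, Col17a1, Col7a1, Dst, Lama3, Lamb3 and Cd151. The RNA came from whole esophagus of wild-type mice that either drank untreated water (control, 5 libraries) or had 0.5% sodium dodecyl sulfate (SDS, an anionic household detergent) in the water until day 14 (3 libraries). No other allele or agent is named for either group; the sources used here give no strain, age or sex. Whether each library is its own mouse is not stated in the labels either, so a p-value here covers the spread among these libraries, which may be technical. Libraries held 22033866 to 29802362 counts, so 3 counts corresponded to 0.101 to 0.136 CPM (counts per 1000000).

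As background, integrin alpha6 (Itga6) pairs with integrin beta4 (Itgb4) to form the laminin receptor of the hemidesmosome. Inside the cell its long beta4 tail is linked to keratin filaments through plectin (Plec) and the epithelial form of dystonin (Dst). Collagen XVII (Col17a1) crosses the membrane beside it, and the tetraspanin Cd151 binds the laminin-binding integrins, alpha3 (Itga3) among them. Outside the cell these receptors hold laminin 332, which holds the Lama3 and Lamb3 chains and to which collagen VII (Col7a1) anchoring fibrils tie the underlying stroma. Loss of these proteins in people and mice causes blistering at the border of epithelium and stroma.

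All 9 genes were detected in all 8 libraries, and none passed the test between SDS and control. In the edgeR quasi-likelihood fit over 17179 genes, 0 of 9 had a Benjamini-Hochberg adjusted p under 0.05, against 1.05% of all tested genes, and 1 of 9, Itga6, had an unadjusted p under 0.05, against 18.5% of all. Itga6 was also the 1 of 9 called by DESeq2, which called 9.76% of the 16502 genes it gave an adjusted p. The same gene was the 1 of 9 called by limma-voom with sample weights (11.3% of all). Limma-voom without weights called 0 of 9 (0.71% of all). Without SDS library 3 the edgeR fit called 1 of 9, Itga6, against 6.92% of the 17662 genes tested there. Group ranges overlapped for each of the 9 genes (0 of 9 apart), while they lay apart for 13.4% of all tested genes. The log2 fold changes ran from -0.29 (Cd151) to 0.50 (Itga6) with a median of -0.16, and 4 of 9 were above 0. Over all tested genes the median was -0.00473 and 49.3% were above 0. The largest of the 9 differences was that of an integrin chain whose partner, Itgb4, lay on the other side of 0.

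**Figure D1:**
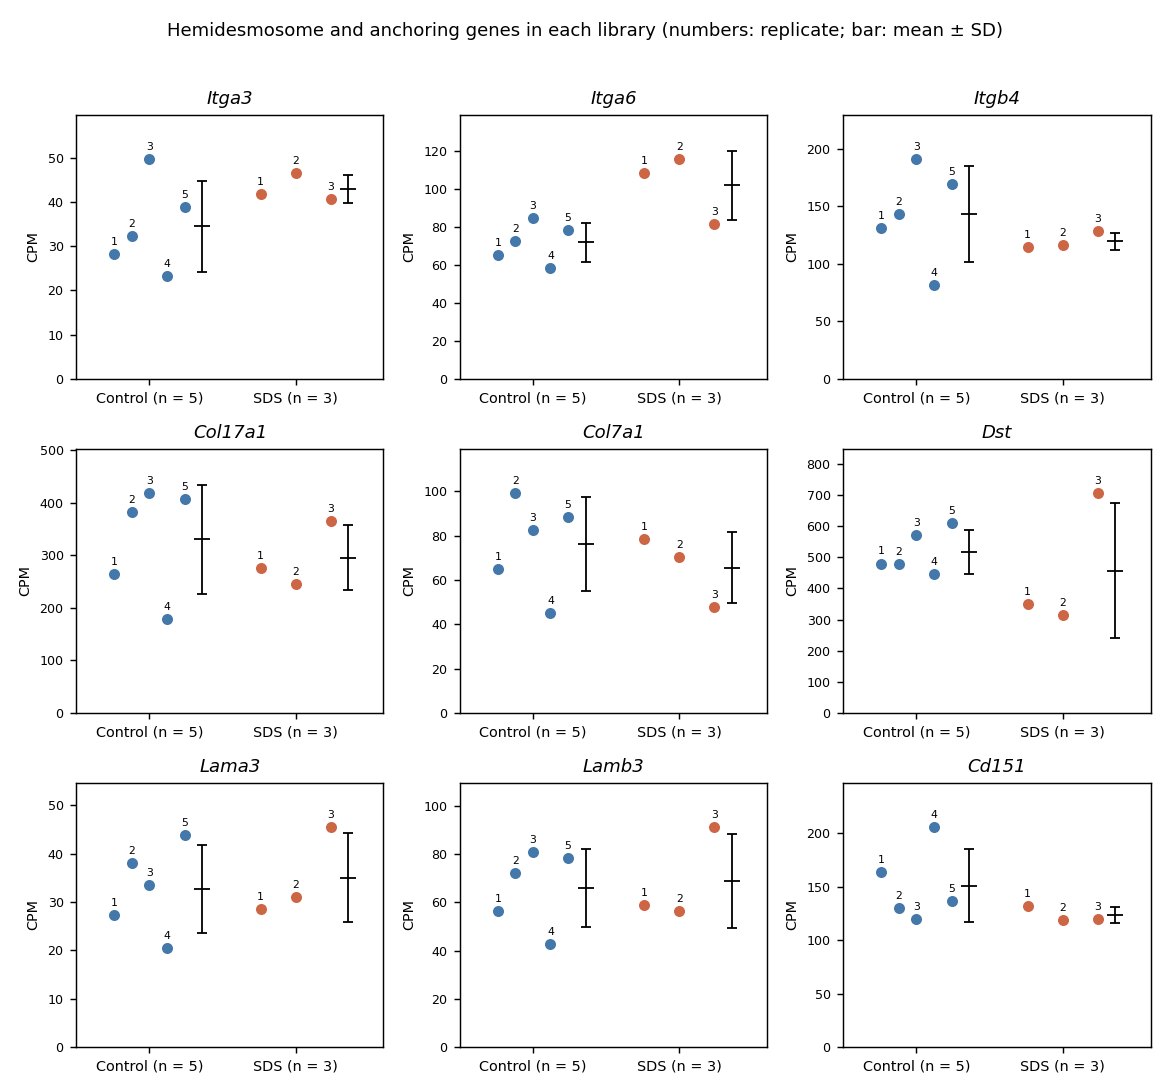
Level of each of the 9 genes in each library, in CPM on a linear axis from 0 (numbered points: replicate; bar: mean ± SD; 5 control and 3 SDS libraries). In every panel the range of the SDS points overlaps that of the controls. Itga6 in SDS libraries 1 and 2 stands above all controls. Dst stands below all controls in the same libraries and above all controls in SDS library 3, so no SDS point of Dst lies inside the control range.

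Markers of the cell types of the esophagus differed between libraries of the same group. Control library 4 had the lowest level among the controls for 8 of the 9 genes and the highest for the ninth, Cd151, and it was the lowest of all 8 libraries for 7. In the same library the mean of 25 pan-epithelial markers stood 0.68 (log2) below the control mean, and the means of the endothelium and smooth muscle lists stood 0.68 and 1.46 above it. The adipocyte list stood 3.87 above it in control 4, the farthest of these lists. That list ran from -4.23 to 3.87 over the controls and stood at 1.96, -2.48 and -0.37 in SDS libraries 1 to 3. In controls 1, 2, 3 and 5 the pan-epithelial mean lay at -0.24, 0.25, 0.49 and 0.18, and in SDS libraries 1, 2 and 3 at -0.03, -0.02 and 0.47. Skeletal muscle markers lay lower in the SDS group, at -0.21, -0.65 and -1.14, against -0.36 to 0.45 in controls. Of the 16, 15 had a log2 fold change below 0, and 0 passed over all genes, against 1.05% of all tested genes. At an unadjusted edgeR p under 0.05, 12 of 16 were lower, against 18.5% of all genes in either direction. For 11 of 16 every SDS library lay below every control, while group ranges lay apart for 13.4% of all genes in either direction. Squamous, skeletal muscle, fibroblast and leukocyte RNA were all present: the 12 suprabasal squamous markers summed to 56407 to 164940 CPM in controls and 97181 to 170530 CPM in SDS, and the 16 skeletal muscle markers to 43684 to 58923 and 20682 to 35925 CPM, with no marker of either list at 0 in a library. In bulk RNA fewer cells of a type and less RNA per cell cannot be told apart, and the part of these lists in the results was not tested.

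**Figure D2:**
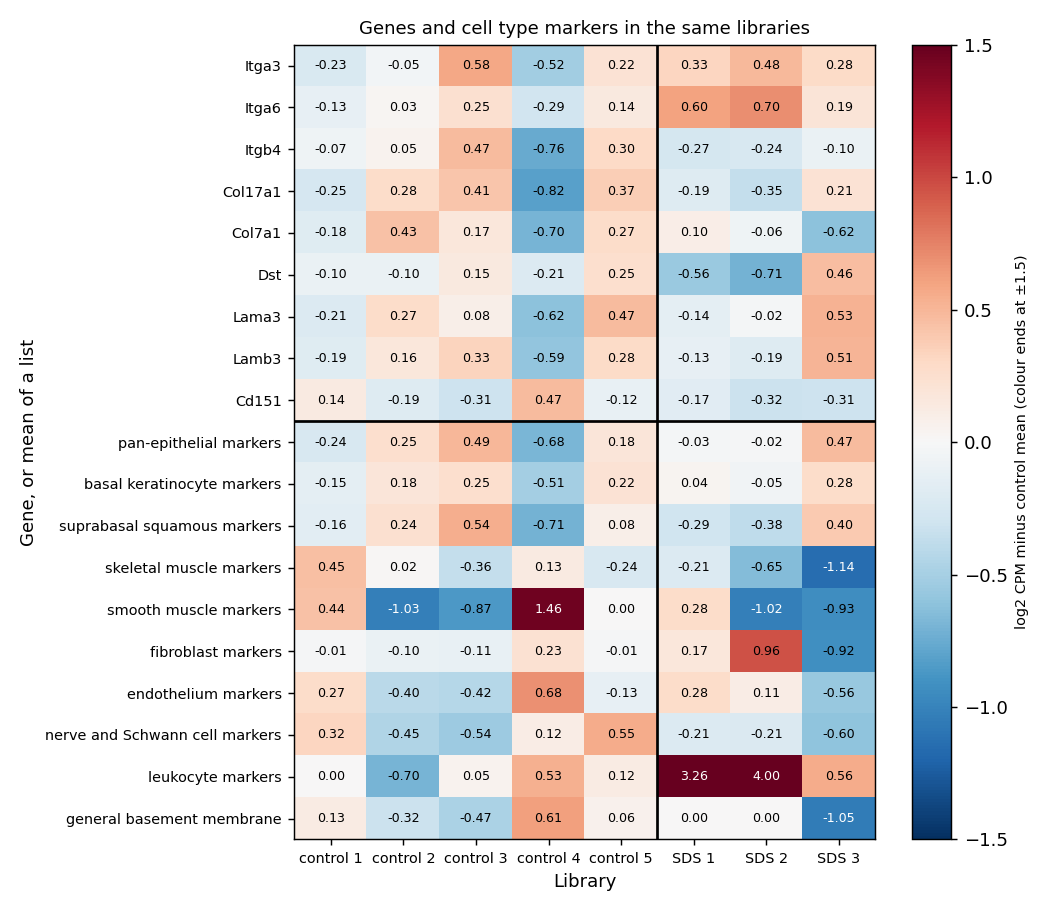
Log2 CPM minus the control mean for the 9 genes (above the line) and, below it, the means of the marker lists and of the general basement membrane list, by library. The adipocyte list is not shown. Control 4 is low in 8 of the 9 genes and in the 3 epithelial lists, Cd151 runs with the endothelium and muscle lists there, and the leukocyte list is high in SDS libraries 1 and 2 (3.26 and 4.00).

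Per kilobase of exon, the scale on which genes can be compared, the 9 genes spanned from 57.3 CPM per kilobase for Col17a1 to 3.04 for Lama3 in the control mean. Col17a1 (57.3 ± 18.1, SD, n = 5) and Cd151 (55.2 ± 12.6) headed the order and did not differ beyond their spread, since Col17a1 was the higher in 3 of 5 controls. Itgb4 followed at 20.4 ± 5.94, below Cd151 in each of 5 controls with ranges that did not overlap. Dst (12.6 ± 1.71), Lamb3 (9.99 ± 2.45), Itga6 (7.97 ± 1.15), Col7a1 (7.39 ± 2.07) and Itga3 (6.03 ± 1.80) formed a close series in which each range overlapped the next. Lama3 (3.04 ± 0.849) came last, below Itga3 in 5 of 5 controls though the ranges overlapped. In SDS the first 3 places and the last were held by the same genes, and Itga6 moved from the sixth to the fourth place, with 11.3 ± 2.01 (SD, n = 3). The value for Dst rests on a summed exon length of 41155 bases over all its isoforms, so it understates a shorter isoform. The same limit holds for the other genes. For Lama3 the length is 10745 bases, and GENCODE M21 lists 2 protein-coding transcripts with 2 starts. Its last place and the size of the Lamb3 to Lama3 ratio therefore depend on that length.

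**Figure D3:**
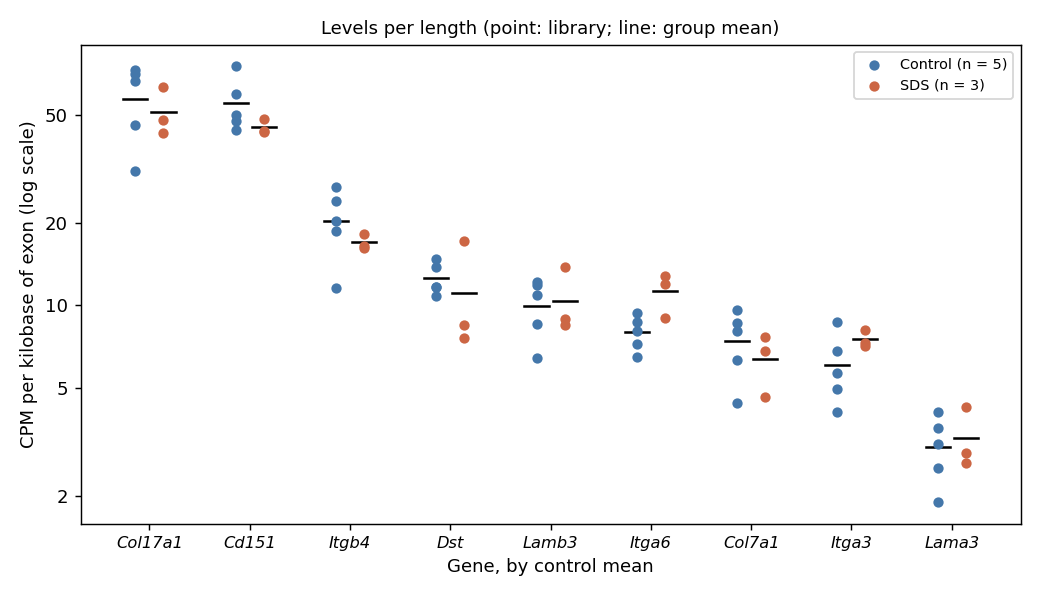
CPM per kilobase of exon (log axis) for the 9 genes, ordered by control mean (point: library; line: group mean). Col17a1 and Cd151 lead at 57.3 and 55.2 in controls, and Lama3 is lowest at 3.04.

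Among the receptors, Itga6 (ENSMUSG00000027111, mm10 chromosome 2 from 71745616 to 71858416, plus strand) measured 65.4, 72.8, 84.5, 58.3 and 78.6 CPM in controls 1 to 5 and 108, 116 and 81.4 CPM in SDS libraries 1 to 3. SDS libraries 1 and 2 were above every control, and SDS library 3 lay within the control range, below control 3. Itga6 thus had a log2 fold change of 0.50 ± 0.16 (SE; 95% interval 0.14 to 0.86; edgeR adjusted p = 0.142). Itga6 passed without SDS library 3 (log2 0.65, edgeR adjusted p = 0.0412), with DESeq2 (0.51, adjusted p = 0.0453) and with limma-voom sample weights (0.56, adjusted p = 0.0186), and in none of the other 16 settings. Integrin alpha6 is also made by endothelium, Schwann cells and some leukocytes. In SDS libraries 1, 2 and 3 the endothelium list stood at 0.28, 0.11 and -0.56 (log2 against the control mean), the nerve and Schwann cell list at -0.21, -0.21 and -0.60, and the leukocyte list at 3.26, 4.00 and 0.56. The leukocyte list was thus highest in the same libraries as Itga6; its 10 tested members summed to 104 to 197 CPM in controls and 282 to 6366 CPM in SDS, Cd3e had too few counts for the test, and its part in the Itga6 level was not tested. Its members differed by 0.85 to 8.28 (log2, median 1.81), and the highest, S100a8 (8.28) and S100a9 (6.15), are also made by keratinocytes. Ptprc (CD45, carried by leukocytes) measured 35.8, 76.7 and 9.05 CPM in SDS libraries 1 to 3 and 7.08 to 15.3 CPM in controls, with SDS library 3 inside the control range (edgeR adjusted p = 0.123).

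Itgb4 (ENSMUSG00000020758, chromosome 11 from 115974709 to 116008412, plus strand), the chain that only pairs with alpha6, measured 131, 143, 191, 81.2 and 169 CPM in controls and 114, 116 and 128 CPM in SDS. All 3 SDS libraries lay below 4 of the 5 controls and above control 4, for a log2 fold change of -0.26 ± 0.24 (SE; 95% interval -0.81 to 0.30; edgeR adjusted p = 0.624). Itga3 (ENSMUSG00000001507, chromosome 11 from 95044474 to 95076801, minus strand), which pairs with beta1 and binds laminin outside the hemidesmosome, measured 28.3, 32.2, 49.7, 23.2 and 38.8 CPM in controls and 41.8, 46.6 and 40.5 CPM in SDS. The SDS libraries were above 4 controls and below control 3, with a log2 fold change of 0.32 ± 0.22 (SE; 95% interval -0.19 to 0.82; edgeR adjusted p = 0.494).

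Because the 2 hemidesmosome integrin chains lay on opposite sides of 0, their log2 ratio differed by more than either chain alone. A ratio within a library does not depend on how libraries are scaled. The log2 ratio of Itgb4 to Itga6 (counts per length) was 1.37, 1.34, 1.54, 0.84 and 1.47 in controls and 0.44, 0.37 and 1.02 in SDS. SDS libraries 1 and 2 lay below every control and SDS library 3 above control 4 only. The mean difference was -0.70 log2, from 1.31 ± 0.27 (SD, n = 5) to 0.61 ± 0.36 (SD, n = 3), with an exact two-sided permutation p of 0.0357 and 0.107 after Benjamini-Hochberg adjustment over the 6 ratios computed, of which 5 are reported. The ratio therefore did not pass. With 56 divisions of the libraries the smallest p the exact test allows is 0.0179, which at least 3 ratios would have to reach together for the adjusted value to fall under 0.05. In control 4, the library richest in endothelium, smooth muscle and adipocyte markers, the ratio was also low (0.84). The Itga3 to Itga6 ratio differed by -0.13 (exact permutation p = 0.482, adjusted 0.579).

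Set against the basal keratin Krt5, the intermediate filament to which hemidesmosomes attach, Itgb4 was lower in every SDS library. The log2 ratio of Itgb4 to Krt5 was -5.60, -6.25, -5.75, -5.70 and -5.79 in controls and -6.75, -6.65 and -6.62 in SDS. The groups did not overlap, and the SDS mean lay 0.86 below the control mean on the log2 scale (-6.67 ± 0.07 against -5.82 ± 0.25, SD). The exact two-sided permutation p was 0.0179, the smallest that this design can give, and 0.107 after adjustment over the 6 ratios. Itgb4 was lower and Krt5 higher in the SDS mean: Krt5 measured 1986, 3383, 3216, 1315 and 2913 CPM in controls and 3843, 3632 and 3938 CPM in SDS, above every control, with a log2 fold change of 0.57 ± 0.30 (SE; edgeR adjusted p = 0.352). Control 2 had the lowest ratio of the controls, and its gap to the SDS libraries was 0.37 on the log2 scale. Krt5 had the largest log2 fold change of the 10 basal keratinocyte markers, of which 6 lay above 0 and 4 below. The lowest was that of another keratin, Krt15, at -0.55 ± 0.37 (SE; edgeR adjusted p = 0.478). The ratio thus depends on the choice of Krt5, and ratios of Itgb4 to the other basal markers were not computed.

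**Figure D4:**
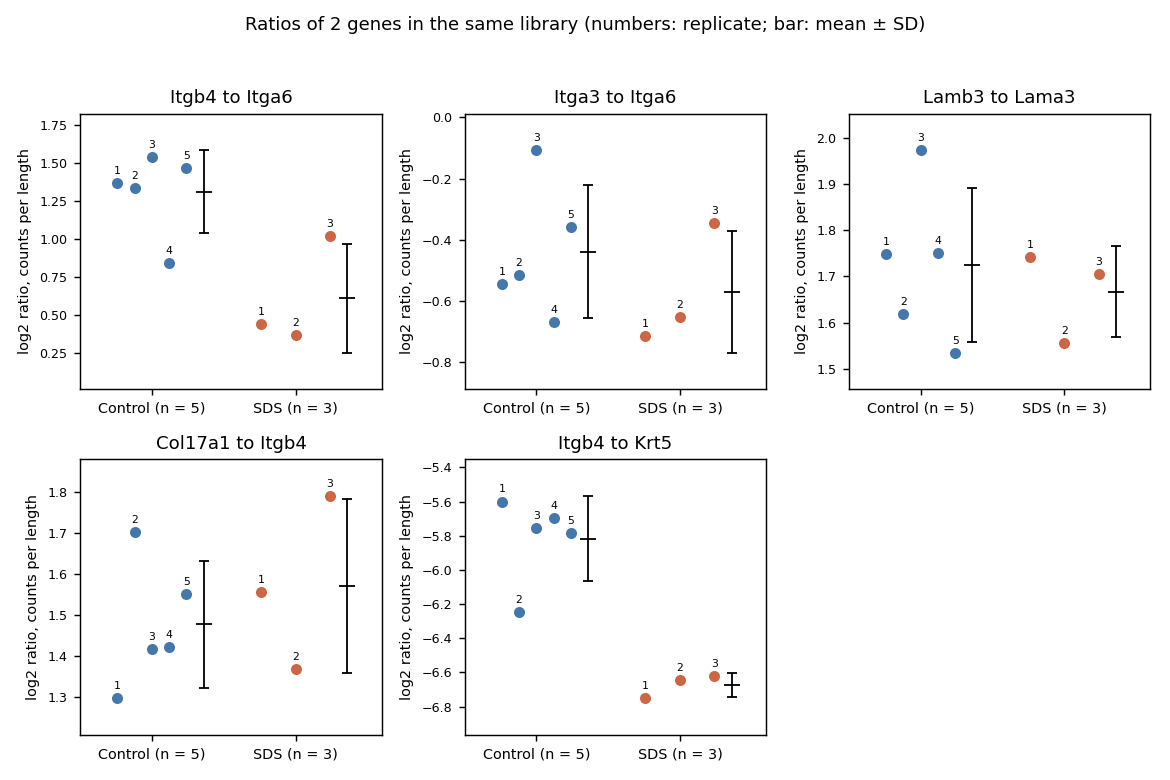
Log2 ratio of 2 genes within each library, in counts per length (numbered points: replicate; bar: mean ± SD; 5 control and 3 SDS libraries; axes do not start at 0). The SDS points lie below all controls for Itgb4 to Krt5, 2 of 3 do so for Itgb4 to Itga6, and the Lamb3 to Lama3 ratios overlap.

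Cd151 (ENSMUSG00000025510, chromosome 7 from 141467392 to 141471473, plus strand) measured 163, 130, 120, 206 and 137 CPM in controls and 132, 119 and 120 CPM in SDS. The SDS libraries sat at the low end of the control range, with SDS libraries 2 and 3 just under control 3, the lowest control, and Cd151 had a log2 fold change of -0.29 ± 0.18 (SE; 95% interval -0.70 to 0.12; edgeR adjusted p = 0.444). This tetraspanin is found on endothelium and muscle as well as on keratinocytes. Of the 9 genes it lay farthest from their mean profile, which includes it. Its root mean square difference was 0.45 log2, against 0.16 (Lamb3) to 0.32 (Itga6) for the others. In each control and in SDS library 3, Cd151 and the mean profile lay on opposite sides of 0. In SDS libraries 1 and 2 both were below 0 (-0.07 and -0.22 for Cd151, -0.05 and -0.08 for the mean). Of 10 other tetraspanins, 1 passed, against 1.05% of all tested genes, and 7 of 10 lay above 0 (median log2 fold change 0.23). At an unadjusted p under 0.05 there were 4 higher (Cd37, Cd53, Tspan14 and Tspan33) and 2 lower (Tspan15 and Cd82), against 18.5% of all genes in either direction; Cd37 and Cd53 are tetraspanins of leukocytes. The 1 that passed, Tspan15, a partner of the protease Adam10, fell by 0.54 on the log2 scale (SE 0.10; edgeR adjusted p = 0.0470) and measured 25.1, 24.7, 24.7, 28.1 and 27.3 CPM in controls and 17.3, 17.0 and 19.4 CPM in SDS. Its groups did not overlap, yet the call was lost without any 1 of the 5 controls and without SDS library 1 or 2 (edgeR adjusted p 0.0694 to 0.193), and in 13 of 19 alternative settings in all.

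Col17a1 (ENSMUSG00000025064, chromosome 19 from 47646344 to 47692094, minus strand), the most abundant of the 9 per length in both group means, measured 265, 382, 419, 179 and 407 CPM in controls and 276, 246 and 365 CPM in SDS. The controls alone spread 2.34-fold, and all 3 SDS libraries lay inside that spread, with a log2 fold change of -0.16 ± 0.29 (SE; 95% interval -0.81 to 0.49; edgeR adjusted p = 0.814). Its ratio to Itgb4, its neighbour in the junction, was 1.48 ± 0.16 in controls and 1.57 ± 0.21 in SDS (log2, SD), a difference of 0.09 with an exact permutation p of 0.482 (adjusted 0.579). Itgb4 and Col17a1 ranked the 5 controls in the same order (4, 1, 2, 5, 3 from low to high), over a 2.35-fold and a 2.34-fold range.

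Among the 9 genes, the plaque gene Dst had the widest spread over the SDS libraries on the log2 scale. Dst (ENSMUSG00000026131, chromosome 1 from 33908225 to 34308661, plus strand) measured 480, 480, 570, 445 and 612 CPM in controls and 349, 314 and 707 CPM in SDS libraries 1, 2 and 3. SDS libraries 1 and 2 were below every control, and SDS library 3 was above every control. The log2 fold change of -0.18 ± 0.27 (SE; 95% interval -0.80 to 0.44; edgeR adjusted p = 0.774) averages these opposite positions: it was -0.64 without SDS library 3 (adjusted p = 0.0608) and 0.03 without SDS library 2 (adjusted p = 0.973). Plec (ENSMUSG00000022565, chromosome 15 from 76170974 to 76232574), which links beta4 to keratin and is also abundant in muscle, measured 394, 444, 467, 401 and 462 CPM in controls and 296, 377 and 217 CPM in SDS. Every SDS library was below every control, and SDS library 3 was the lowest. Plec had a log2 fold change of -0.55 ± 0.18 (SE; 95% interval -0.96 to -0.13; edgeR adjusted p = 0.158), past the threshold with DESeq2 (adjusted p = 0.0409) and with limma-voom sample weights (adjusted p = 0.0334) and in none of the other 17 settings. The skeletal muscle list was also lowest in SDS library 3 (-1.14). Erbin, which binds beta4 and dystonin, stood at 129 ± 19.1 CPM in controls (SD, n = 5) and 125 ± 39.1 CPM in SDS (SD, n = 3), with a log2 fold change of -0.04 ± 0.20 (SE; edgeR adjusted p = 0.934).

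A Dst count pools isoforms of different tissues, since the deposited tables count whole genes. GENCODE M21 lists 20 Dst transcripts, of which 14 are protein-coding with 11 different starts. Dystonin isoforms of nerve, muscle and epithelium differ in their first exons and tails, and the share of each in these counts was not analysed here. The RefSeq promoter table (GRCm38.p6, the assembly of mm10) gives 2 Dst starts that lie 148665 bases apart. The 250 bases before each are shown because they differ in kind, GC-rich at the first (68.8% G or C) and not at the second (45.2%). The window before Col7a1 (56.4%) is added because it ends where the deposited table starts that gene, at base 108953586. Capitals mark the SP/KLF box GGGCGG on either strand, and each sequence reads 5′ to 3′ on the plus strand.
Dst, first start, chr1:34011345-34011594: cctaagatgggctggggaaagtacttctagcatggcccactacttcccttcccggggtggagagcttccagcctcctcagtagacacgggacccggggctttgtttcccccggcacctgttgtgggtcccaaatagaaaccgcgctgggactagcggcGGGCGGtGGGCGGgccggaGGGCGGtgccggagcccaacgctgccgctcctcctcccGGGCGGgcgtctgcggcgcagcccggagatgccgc
Dst, second start, chr1:34160010-34160259: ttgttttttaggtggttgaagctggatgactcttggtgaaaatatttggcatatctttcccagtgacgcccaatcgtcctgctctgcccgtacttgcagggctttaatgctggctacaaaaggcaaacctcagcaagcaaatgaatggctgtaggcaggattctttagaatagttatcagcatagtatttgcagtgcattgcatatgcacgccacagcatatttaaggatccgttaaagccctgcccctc
Col7a1, chr9:108953336-108953585: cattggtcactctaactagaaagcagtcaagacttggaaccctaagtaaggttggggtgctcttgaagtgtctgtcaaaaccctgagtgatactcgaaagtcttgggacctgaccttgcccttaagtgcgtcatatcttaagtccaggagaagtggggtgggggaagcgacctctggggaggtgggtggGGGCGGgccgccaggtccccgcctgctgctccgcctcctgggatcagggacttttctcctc
The first Dst window holds 4 copies of GGGCGG, the second holds 0, and the Col7a1 window holds 1. Of all 32851 promoters in the table, 32.7% hold at least 1 in the same 250 bases. The table matched 6 of the 9 genes with 10 starts, and Itga6, Itgb4 and Lama3 were not matched. Of these 10 windows 5 held GGGCGG, 0 held the AP-1 box TGANTCA (6.7% of all promoters), 1 held the TEAD box GGAATG (12.6%) and 9 held the p53 family core motif (63.5%), all searched on both strands. In the 3 windows shown no match of one motif overlapped a match of another.

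Neither Lama3 nor Lamb3, chains of laminin 332, passed, and neither did their ratio. Lama3 (ENSMUSG00000024421, chromosome 18 from 12333819 to 12583013, plus strand) measured 27.3, 38.1, 33.5, 20.5 and 43.9 CPM in controls and 28.6, 31.1 and 45.5 CPM in SDS. Lamb3 (ENSMUSG00000026639, chromosome 1 from 193207699 to 193343878, plus strand) measured 56.5, 72.0, 80.9, 42.5 and 78.3 CPM in controls and 58.8, 56.2 and 91.3 CPM in SDS. For Lama3 and Lamb3 SDS library 3 was the highest of all 8 libraries, and SDS libraries 1 and 2 lay between the lowest and the median control. Log2 fold changes were 0.10 ± 0.25 for Lama3 (95% interval -0.47 to 0.68) and 0.06 ± 0.24 for Lamb3 (-0.50 to 0.61), with edgeR adjusted p of 0.870 and 0.927 (± SE). The sign of each turned under some scalings or left-out libraries, so neither has a direction. The Lamb3 to Lama3 log2 ratio was 1.73 ± 0.17 in controls and 1.67 ± 0.10 in SDS (exact permutation p = 0.625, adjusted 0.625; SD, n = 5 and 3).

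Col7a1 (ENSMUSG00000025650, chromosome 9 from 108953586 to 108984875, plus strand), the anchoring fibril collagen that keratinocytes and fibroblasts both secrete, measured 64.9, 99.2, 82.6, 45.2 and 88.5 CPM in controls and 78.6, 70.3 and 47.7 CPM in SDS. SDS library 3, which was highest for Lama3, Lamb3 and Dst, was the lowest SDS library for Col7a1, near control 4. The fibroblast list, at 0.17, 0.96 and -0.92 (log2 against the control mean) in the same order of libraries, was also lowest in SDS library 3, and its part was not tested. Col7a1 had a log2 fold change of -0.21 ± 0.26 (SE; 95% interval -0.82 to 0.39; edgeR adjusted p = 0.718), and it was -0.03 without SDS library 3.

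**Figure D5:**
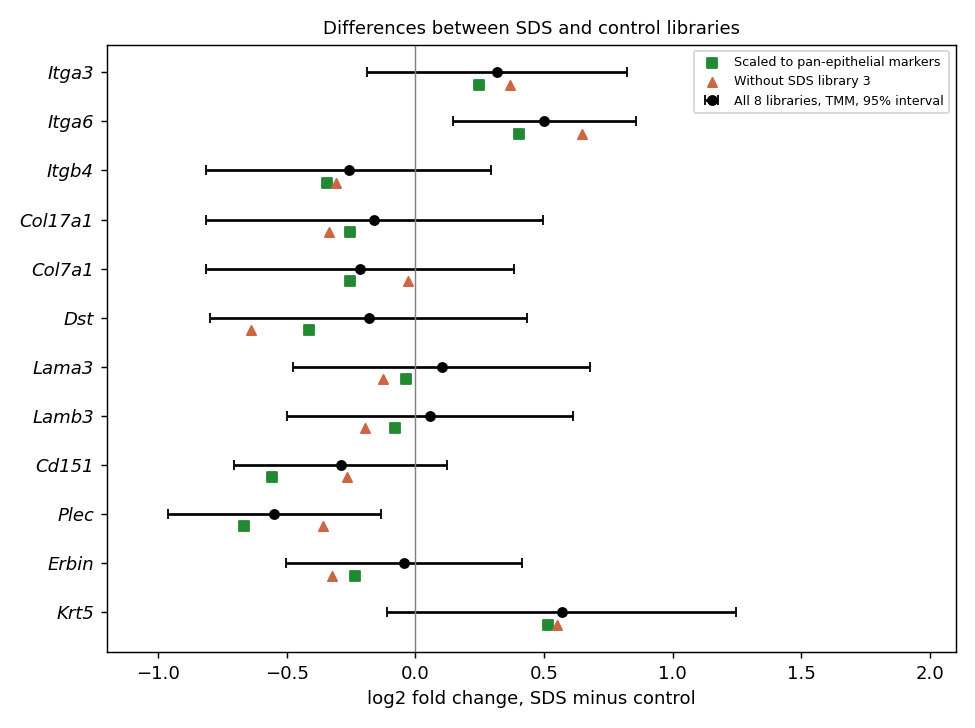
Log2 fold change, SDS minus control, for the 9 genes and 3 partners (black: edgeR estimate over all 8 libraries with its 95% interval; square: libraries scaled to the pan-epithelial markers; triangle: without SDS library 3). The interval includes 0 for every gene but Itga6 and Plec, neither of which passed after adjustment over all genes.

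Of the 4 partner genes only Krt14 passed, against 1.05% of all tested genes. Krt14, the keratin that pairs with Krt5 in basal cells, rose by 2.55 ± 0.47 (log2, SE; edgeR adjusted p = 0.0493), from 419, 645, 822, 325 and 675 CPM in controls to 5036, 4008 and 1094 CPM in SDS. The call was lost without any 1 of the 5 controls and without SDS library 1 or 2 (edgeR adjusted p 0.0693 to 0.193), and in 13 of 19 alternative settings in all. The log2 fold change stayed between 2.14 and 2.97 when any 1 library was left out. SDS libraries 1 and 2, which had the highest Krt14, had the lowest Itgb4 and Dst of the SDS group and the highest Itga6.

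The wider basement membrane and adhesion lists gave no call, where 1.05% of all tested genes were called. At that share lists of this size can hold 0 calls without differing from other genes. Of 29 general basement membrane genes (other laminins, type IV collagens, nidogens, perlecan and relatives) 0 passed, with a median log2 fold change of -0.30. Of these 29, 22 were below 0, while 49.3% of all tested genes were above 0. Their mean level was 0.00, 0.00 and -1.05 (log2) in SDS libraries 1, 2 and 3, where the mean of the 9 hemidesmosome genes was -0.05, -0.08 and 0.13. The general list and the 9 genes therefore parted in SDS library 3 and, in the other direction, in control 4 (0.61 against -0.45); the endothelium and smooth muscle lists stood at -0.56 and -0.93 in SDS library 3. Nephronectin (Npnt), a basement membrane ligand of integrin alpha8 beta1, was singled out after its values were seen: it measured 44.1 CPM in the control mean and 25.4 CPM in SDS, with groups that did not overlap (log2 -0.80 ± 0.27, SE; edgeR adjusted p = 0.158; 0.0491 with DESeq2).

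Of 19 other integrins and adhesion adaptors 0 passed (median -0.12), against 1.05% of all tested genes. Itgb6, the epithelial beta chain that activates TGF-beta, was also singled out after its values were seen. It measured 11.7, 9.73, 10.9, 11.1 and 12.5 CPM in controls and 6.99, 7.66 and 7.01 CPM in SDS. Its groups did not overlap, with a log2 fold change of -0.63 ± 0.13 (SE; edgeR adjusted p = 0.0574). It passed with DESeq2 (adjusted p = 0.00013), with limma-voom sample weights (0.0142) and without SDS library 3 (0.0499).

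Of 14 genes that process basement membrane proteins 0 passed (median 0.14), against 1.05% of all tested genes. Adam9, Adam10 and Adam17 are sheddases that release the collagen XVII ectodomain. Adam10 and Adam17 were the 2 of 14 members of this list whose SDS libraries were all above the controls. Group ranges lay apart, in either direction, for 13.4% of all tested genes, so this count is near that share. Adam9 measured 80.8, 93.4 and 52.8 CPM in SDS and 55.9 to 76.5 CPM in controls, so that SDS library 3 lay below every control (log2 0.25 ± 0.19, SE; edgeR adjusted p = 0.526). Adam17 measured 45.5, 47.5, 51.2, 45.9 and 49.2 CPM in controls and 62.5, 79.3 and 63.4 CPM in SDS (log2 0.52 ± 0.10, SE; edgeR adjusted p = 0.0546). Adam10 measured 71.1, 73.2, 76.1, 70.7 and 77.9 CPM in controls and 91.4, 96.7 and 87.0 CPM in SDS (log2 0.31 ± 0.09, SE; edgeR adjusted p = 0.106). Both passed with DESeq2 (adjusted p = 0.00045 and 0.00094) and with limma-voom sample weights (0.0164 and 0.0275), and Adam17 also without SDS library 3 (0.0262). Basal keratinocyte markers gave 0 calls of 10 (median 0.18), pan-epithelial markers 0 of 25 (0.13) and suprabasal markers 0 of 12 (0.04). Fibroblast, endothelium, nerve and Schwann cell, smooth muscle and adipocyte markers gave 0 calls of 10, 10, 12, 8 and 8, and of the 10 tested leukocyte markers 8 were higher at an unadjusted p under 0.05 (18.5% of all tested genes, either direction) and 3 passed after adjustment (1.05% of all). These 3 that rose were S100a9, S100a8 and Cd3d, whose calls were lost in 9, 12 and 11 of 19, 19 and 18 alternative settings.

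Genes whose profile over the 8 libraries was most like the mean of the 9 were Notch3, Sept8, Fbxw9, Fancg and Igsf9, with root mean square differences of 0.040, 0.051, 0.058, 0.062 and 0.064 log2. The mean profile they resembled was -0.13, 0.10, 0.24, -0.45 and 0.24 in controls and -0.05, -0.08 and 0.13 in SDS. Its lowest and highest values, -0.45 and 0.24, were both in controls.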

How the data were processed

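Poly(A) RNA of whole esophagus was sequenced in 8 libraries, 5 control and 3 SDS, grouped by the titles in the labels. Each deposited table holds 1 library's raw counts, made by the authors with bcl2fastq, FastQC, STAR 2.6.1c and Subread on mm10, per the submitters' processing notes; the sources used here do not give the annotation release, the strand setting or the handling of multi-mapped reads. The tables also give each gene's exon length, as deposited by the authors (another kind of value, used for counts per kilobase only). Per the labels' protocols the kit was NEBNext Ultra II RNA; that text speaks of cell pellets, the treatment text of whole esophagus. Symbols matched 48970 of 49315 identifiers, and the 9 members were found once each. Members share exon bases with B230344G16Rik (Itgb4), Gm26788 and A930005N03Rik (Dst), Gm29200 (Lama3), Gm10575 (Cd151) and Mir711 (Col7a1), and Plec with Parp10, so reads there could be divided either way; these held 1 to 4453 counts over all libraries.

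Counts were filtered with filterByExpr (minimum count 10, minimum total 15; 17179 genes), scaled by TMM and fitted with edgeR 4.0.16 in R 4.3.3 (glmQLFit, robust, group as the term; glmQLFTest, two-sided; Benjamini-Hochberg over all tested genes; threshold 0.05). SE is the log2 fold change over the square root of F. CPM use TMM-scaled library sizes; log2 CPM use a prior count of 2. Ratios are log2 of (counts + 0.5) per length and were tested by exact permutation. DESeq2 1.42.0 and limma 3.58.1 were alternatives, and the procedure was tested on simulated data. Intervals are 95% and take the test's degrees of freedom. Floors cover counting error only. No libraries of a group were copies (lowest chi-square per degree of freedom 24.1).

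Members and lists were chosen with earlier results of these data known. Named genes were the 9 members, Plec, Erbin, Krt5 and Krt14 whatever they showed, up to 4 called members of each list, and the 5 genes of most similar profile, by the root mean square difference of centred log2 CPM among genes at least as variable as the member mean. Those said to be singled out, and Adam9, Adam10, Adam17, Ptprc and the tetraspanins other than Cd151 and Tspan15, were chosen after their values were seen. Results for 1 partner gene, its ratio and 1 marker are not reported here.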

Additional observations from a re-analysis of the deposited data

Results flagged for a closer look

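In the control group the ratio of Itgb4 to Krt5 in control library 2 stood apart from the other 4: its log2 value was -6.25 against -5.60 to -5.79, and the gap took a share of 0.711 of the group's range, just over Dixon's critical value of 0.71 for 5 samples. Chance flags about 1 in 20 groups, and 18 groups of controls were examined (13 genes and 5 ratios). Krt5 was highest among the controls in that library, at 3383 CPM. The difference between groups in this ratio was as large without control 2 (-0.96) as with it (-0.86).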

How the results depend on the processing

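Of the 9 hemidesmosome genes 0 passed in the reported fit and in 16 of 19 alternatives; 1, Itga6, passed with DESeq2, limma-voom with sample weights and without SDS library 3, so the range with 1 library left out was 0 to 1. Over all genes 180 were called, and 4 when libraries were scaled to the pan-epithelial markers, 1610 with DESeq2, 1948 with limma-voom and sample weights, 12 with the skeletal muscle covariate, 0 with the replicate block and 4 to 1222 with 1 library left out (4, 7, 18 and 10 without control 1, 2, 3 or 5, and 56, 4 and 1222 without SDS library 1, 2 or 3). Replicate numbers in the labels were not shown to pair the libraries. Deviations of same-numbered libraries correlated at 0.31, -0.01 and 0.31, while control 4 and SDS library 1 correlated at 0.51. These correlations cannot decide whether the libraries were paired. With the replicate block Itga6 was at 0.45 (edgeR adjusted p = 0.279) and Itgb4 at -0.36 (0.223). The ratio of Itgb4 to Itga6 was then -0.81 and that of Itgb4 to Krt5 -0.81. The causes of the changes below were not tested. Lama3 turned to -0.036 and Lamb3 to -0.080 with epithelial scaling, to -0.21 and -0.20 with limma-voom sample weights, to -0.41 and -0.45 with the muscle covariate, to -0.015 and -0.053 without control 4 and to -0.12 and -0.19 without SDS library 3; Lamb3 was -0.041 with the replicate block; with 1 library left out Lama3 ran from -0.12 to 0.23 and Lamb3 from -0.19 to 0.18. Erbin turned to 0.044, 0.10 and 0.063 without control 3, SDS library 1 or SDS library 2, and Dst to 0.030 without SDS library 2; with 1 library left out these ran from -0.32 to 0.10 and -0.64 to 0.030. The Lamb3 to Lama3 difference ran from -0.11 to 0.0041 (without control 3), and Col17a1 to Itgb4 from -0.016 (without SDS library 3) to 0.20. Over all alternatives Itgb4 lay between -0.58 and -0.13, Col17a1 between -0.63 and -0.04, Cd151 between -0.56 and -0.02, Col7a1 between -0.37 and -0.03 and Itga3 between 0.01 and 0.49, with no change of sign. At 3 against 5 libraries the 95% intervals of the 9 genes, which are not adjusted for the number of genes, reach 0.36 to 0.65 on either side of the estimate. Differences smaller than that could not be told from 0 at this number of libraries. The adjusted test asks for more: Itga6, at 0.50 with 0.36 on either side, did not pass (edgeR adjusted p = 0.142).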
